A study of Homo sapiens with 10 samples.

Results

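The state of vehicle-treated PANC-1 cells was described from the 5 control libraries of an RNA sequencing series. PANC-1 is an established line grown from a human carcinoma of the pancreatic duct. The series holds 10 libraries of these cells. In 5 of them the cells had received only DMSO, the solvent used as vehicle, for 24 h. In the other 5 they had received 20 µM LY (lycorine) for 24 h. The DMSO libraries were taken as members by their columns in the deposited table, NC-1 to NC-5, and the treated libraries were not used. The name NC stands in no sample title. These columns were taken as the DMSO group because every other column is named LY and DMSO is the only other group in the labels. The labels give no genotype, passage or culture of the cells, and nothing says whether the 5 libraries came from separate cultures. The numbers of the NC columns could not be tied to single samples, so they serve here only as names of libraries.

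Values are TPM, a relative transcript abundance in which each transcript is scaled by its length and each library sums to the same total. TPM can therefore be compared between genes of 1 library, but a gene that takes more of the total leaves less for the others. Of the 20263 genes in the table, 11142 (55.0%) had a TPM of at least 1 in all 5 libraries and are called present. Another 4655 genes (23.0%) were listed at 0 in all 5, and 4466 (22.0%) lay between. Around the limit, 43 present genes had their lowest value under 1.05 TPM and 47 other genes had their lowest value at 0.95 TPM or more. The depth of the libraries is unknown, so a gene listed at 0 may have been too rare to be sampled.

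As background, cancers of the pancreatic duct are carcinomas in which loss of CDKN2A and SMAD4 recurs. Duct cells are joined by cadherins and tight junctions, stand on a laminin and collagen basement membrane held by integrins, and carry simple keratins. Carcinoma cells that pass through an epithelial to mesenchymal transition (EMT) lose E-cadherin, and vimentin filaments join or replace keratin filaments. Growth factors of the EGF, TGF-beta, Wnt, Notch and Hedgehog families all act on pancreatic cells during development and in tumours.

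The sequences at the start of ribosomal protein genes are shown because this family held 9 of the 30 most abundant transcripts. Their messages are known to begin with a C followed by a run of pyrimidines, the terminal oligopyrimidine (TOP) motif, through which mTOR signalling sets their translation. Each line gives 20 bases before and 20 bases from the annotated start (RefSeq, GRCh38.p14), 5′ to 3′, and capitals mark a C at the start with the pyrimidines that follow it without a break, where there are at least 4.
RPS24: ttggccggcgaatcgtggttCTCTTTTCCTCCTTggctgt
RPS12: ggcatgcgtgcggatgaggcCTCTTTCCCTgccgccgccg
RPL7A: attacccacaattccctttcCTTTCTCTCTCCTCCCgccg
RPL13A: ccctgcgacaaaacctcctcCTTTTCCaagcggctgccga
RPL36A: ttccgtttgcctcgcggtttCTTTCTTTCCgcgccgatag
RPL6: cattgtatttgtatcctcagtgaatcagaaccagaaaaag
These windows lie at chr10:78033843-78033882 (RPS24), chr6:132814549-132814588 (RPS12), chr9:133348198-133348237 (RPL7A), chr19:49487588-49487627 (RPL13A) and chrX:101390991-101391030 (RPL36A) on the plus strand, and at chr12:112411423-112411462 on the minus strand (RPL6). Among the windows shown, the run is longest in RPL7A, with 16 bases, and RPL6 has none at its annotated start. The windows are examples. RPL27, the most abundant gene of the family, also has no such run at its annotated start and is not shown. The median levels of the genes shown were 4472 TPM for RPS24, 3625 for RPL7A, 3575 for RPL13A, 2366 for RPL6, 2313 for RPL36A and 2244 for RPS12. RPL6 lay among the others in level, but whether its message lacks the run cannot be read from this window. A start of this form was found in 42 of the 64 cytosolic ribosomal protein genes with a promoter entry (65.6%), in 19.9% of the 412 matched genes among the 500 most abundant, and in 4.66% of all 15269 matched genes. Annotated starts can differ from the starts used in these cells, which were not measured.

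Transcription of the mitochondrial genome led the ranking by median TPM. The most abundant transcript was MT-CO3, a subunit of cytochrome c oxidase, with 29197, 55134, 29035, 29248 and 26109 TPM in NC-1 to NC-5. MT-CO2, the next, stood at 25585, 54749, 25601, 25841 and 23535 TPM, and MT-CO1, the catalytic subunit, at 17202, 38289, 17307, 16937 and 15271 TPM. In each of these 3 genes NC-2 was the highest library and the other 4 lay close together. The ATP synthase subunit MT-ATP8 measured 12740.2, 70350.2, 11338, 12133 and 9769.99 TPM, and its reading frame overlaps that of MT-ATP6, so the split of reads between them is uncertain. The ratio of MT-ATP8 to MT-ATP6 ran from 2.49 to 2.71 in the other libraries and was 5.53 in NC-2. The complex I subunits MT-ND4L and MT-ND4 also overlap and reached 12579, 33883, 11101, 11301 and 10225 TPM and 9555, 30248, 8467, 8374 and 7359 TPM. All 13 mitochondrially encoded genes were present, and even the lowest, MT-ND6, had a median of 3178 TPM.

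The most abundant nuclear transcript was TMSB4X, which encodes thymosin beta-4, a protein that binds actin monomers. Its level was 10969, 5944, 11729, 11965 and 13337 TPM, lowest in NC-2. The glycolytic enzyme GAPDH followed with 7707, 5712, 7836, 7856 and 7754 TPM. The ferritin light chain FTL, which stores iron, measured 7134, 4486, 7254, 7043 and 6499 TPM, and the translation elongation factor EEF1A1 measured 6520.3, 5840.3, 10306, 6567 and 6849.9 TPM, highest in NC-3. The next nuclear genes in rank were beta-actin (ACTB, median 6551 TPM), TMSB10 (6299 TPM) and the elongation factor EEF2 (5326 TPM). Among the 30 most abundant genes, 12 were mitochondrially encoded, and 9 encoded cytosolic ribosomal proteins, led by RPL27 (4859.9 TPM) and RPL12 (4744 TPM). VIM and the constitutive chaperone HSPA8 (3915 TPM) also ranked among these 30. Reads of FTL, EEF1A1, ACTB, GAPDH and the ribosomal protein genes can also match processed pseudogenes, and how such reads were assigned is not given in the sources used here.

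Abundance was concentrated. By median TPM, 267 genes held 50% of the total and 4169 held 90%. Leaving out the mitochondrial genes, 457 nuclear genes held 50% of the nuclear total. Medians of at least 1000 TPM were reached by 121 genes, at least 100 TPM by 1545 and at least 10 TPM by 8196. The median present gene stood at 22.8 TPM, with quartiles of 9.43 and 55.4 TPM.

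1 library stood apart. Mitochondrially encoded genes took 14.1% of TPM in NC-1, 37.5% in NC-2, 13.5% in NC-3, 13.8% in NC-4 and 12.2% in NC-5. The mean over the 5 libraries was 18.2 ± 10.8% (SD), against 13.4 ± 0.825% over the 4 without NC-2. The 50 most abundant genes of each library held 29.1%, 47.4%, 29.3%, 29.3% and 28.0% of TPM in NC-1 to NC-5. With the mitochondrial genes removed, the 50 most abundant nuclear genes held 18.8% in NC-2 and 20.6% to 21.5% in the other libraries. NC-2 also had the fewest genes at 1 TPM or more (11340, against 11677 to 11765). Cytosolic ribosomal protein genes took 12.8% of the nuclear total in NC-2 and 16.2% to 17.7% in the others. Without NC-2, 11390 genes were present. Sequencing depth, RNA quality and other states of NC-2 were not tested.

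**Figure D1:**
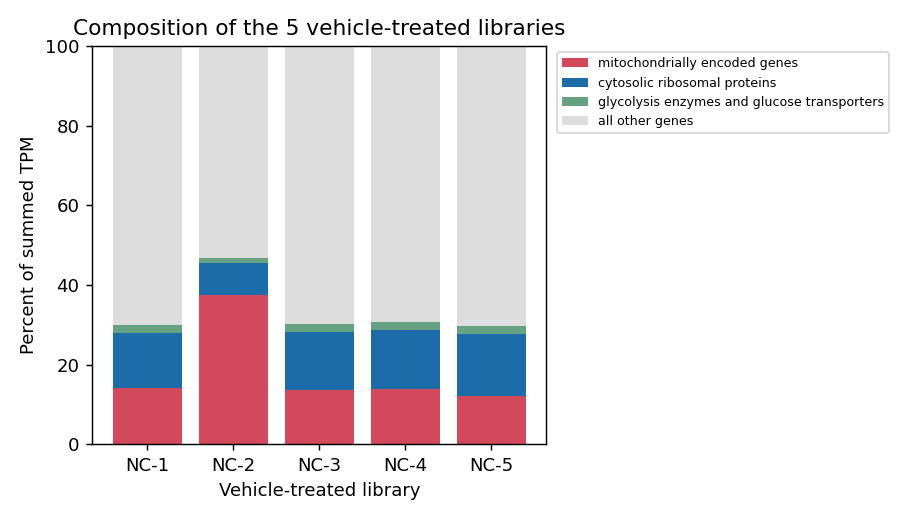
Percent of the summed TPM (y axis) taken by mitochondrially encoded genes, cytosolic ribosomal protein genes, glycolysis genes and all other genes in each of the 5 vehicle-treated libraries (x axis). The mitochondrial part reaches 37.5% in NC-2 and 12.2% to 14.1% in the other 4.

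Relative to the median of the other 4 libraries and with mitochondrial genes removed, NC-2 lay more than 1 log2 unit higher in 264 of 11129 present nuclear genes and more than 1 lower in 140. The median difference over those genes was 0.11 on the log2(TPM + 1) scale. It was -0.46 for the 79 present cytosolic ribosomal protein genes, -0.24 for 37 proteasome subunits and 0.25 for 375 zinc finger genes. By median length of the annotated coding transcripts, the difference was -0.02 for 2816 genes under 1000 bases, 0.06 from 1000 bases, 0.18 from 2000 bases and 0.26 for 1566 genes of 4000 bases or more. NC-2 therefore held relatively more of the long transcripts, while those under 1000 bases were little changed at the median. Levels below are deposited TPM, as medians over the 5 libraries unless all 5 values are given. Counts of present genes in the lists below stand beside 55.0% present and 23.0% at 0 over all genes. Mitochondrial genes took 37.5% of TPM in NC-2, so an equal TPM there is a larger share of the nuclear total than in the other 4. Without NC-2 the count of present genes moved by more than 1.5 times in 1 of the 39 gene lists described below, that of hepatocyte and gut markers (from 0 to 1).

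The intermediate filaments were those of a cell with both simple keratins and vimentin. VIM (chr10:17228259-17237593 on hg38), the main filament of mesenchymal cells, measured 4171, 4520, 4277, 4108 and 3989.6 TPM. These TPM lay within a narrow range in all 5 libraries, although nuclear genes held less of the total in NC-2. The most abundant keratins were KRT8 with 1601, 1069, 1441, 1415 and 1569.7 TPM and its pairing partner KRT18 with 833, 664, 664, 689.7 and 721 TPM. KRT19, a keratin of duct cells, followed with 166, 123, 159, 143 and 149 TPM. VIM exceeded KRT8 by a ratio of 2.54 to 4.23 within each library, highest in NC-2, and KRT8 exceeded KRT18 by 1.61 to 2.18. KRT8 and KRT18 are neighbours whose annotated transcripts overlap, so reads in that overlap are uncertain without strand. Of 38 keratins and other intermediate filaments, 12 were present, 17 were at 0 in all libraries and 9 lay between. The nuclear lamins LMNA (491 TPM), LMNB2 (327 TPM) and LMNB1 (119 TPM) and the keratins KRT80 (39.4 TPM), KRT15 (25.5 TPM) and KRT10 (23.5 TPM) were among those present. KRT7, a keratin of duct epithelium, measured 0, 0.0692, 0, 0.303 and 0 TPM, and KRT5, KRT14, KRT20, KRT6A, desmin (DES) and the neurofilament genes NEFL and NEFM were listed at 0 in every library.

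For comparison of promoter letters, 100 bases before the start are shown for the most abundant nuclear gene and for VIM, and for PRSS1 and INS, lineage genes of the acinar and islet cell that were listed at 0. Capitals mark CG and TATAAA.
TMSB4X: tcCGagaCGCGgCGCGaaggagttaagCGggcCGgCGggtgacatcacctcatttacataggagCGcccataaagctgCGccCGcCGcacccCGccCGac
VIM: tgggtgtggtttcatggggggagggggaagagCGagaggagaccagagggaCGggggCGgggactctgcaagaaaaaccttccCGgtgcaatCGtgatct
PRSS1: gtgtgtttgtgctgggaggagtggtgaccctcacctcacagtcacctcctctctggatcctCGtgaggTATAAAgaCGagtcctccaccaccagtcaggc
INS: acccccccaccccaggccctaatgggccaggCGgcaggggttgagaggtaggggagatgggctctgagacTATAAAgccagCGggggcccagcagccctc
The windows (RefSeq, GRCh38.p14) are chrX:12975010-12975109, chr10:17228141-17228240 and chr7:142749372-142749471 on the plus strand and chr11:2161210-2161309 on the minus strand. They hold 14 CG pairs in TMSB4X, 5 in VIM, 2 in PRSS1 and 2 in INS. TATAAA occurs in those of PRSS1 and INS. Over the 250 bases before the start, TATAAA on either strand was found in 4.71% of the 9094 present genes with a promoter entry. The share was 9.15% of all 15269 genes with an entry and 9.47% of the 412 matched genes among the 500 most abundant. The most abundant genes as a set thus held TATAAA about as often as all genes and more often than present genes. The windows shown are single examples. GGGCGG, a GC box on either strand, was found in 69.7% of present and 56.8% of all genes, and CCAAT on either strand in 35.5% and 34.8%. The observed over expected CpG ratio had a median of 0.837 in present genes and 0.743 in all. Entries covered 84.5% of the present protein-coding genes considered but only 77.8% of those at 0, so a count over the genes at 0 is void and is not given. These letters are a description of the windows, and binding or methylation was not measured.

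Epithelial junction genes were split. E-cadherin (CDH1), which joins epithelial cells, measured 0.178, 0.0447, 0.436, 0.302 and 0.199 TPM, far below 1 in every library. N-cadherin (CDH2) was no higher, with a median of 0.166 TPM. EPCAM, an epithelial adhesion molecule, lay around the limit with 0.351, 0.917, 1.04, 1.32 and 0.991 TPM and reached 1 in only 2 libraries. Of 24 epithelial polarity and splicing genes, 8 were present, 1 (GRHL2) was at 0 in all libraries and 15 lay between. Those present included the tight junction genes OCLN (28.6 TPM) and TJP1 (24.1 TPM), the protease inhibitor SPINT2 (28.8 TPM) and F11R (8.21 TPM). The epithelial splicing factors ESRP1 (0.106 TPM) and ESRP2 (0.944 TPM) and the junction gene CRB3 (0.288 TPM) stayed under 1.

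Among 25 mesenchymal genes and EMT factors, 10 were present (40%), 2 were at 0 in all libraries (8%) and 13 lay between. Over all genes 55.0% were present and 23.0% were at 0. Next to VIM stood S100A4 (811 TPM), the hyaluronan receptor CD44 with 791, 762, 750.4, 753 and 789 TPM, and the collagen cross-linking enzyme LOXL2 (254 TPM). The EMT factor ZEB1, a repressor of CDH1, measured 9.18, 21.9, 15.6, 15.01 and 15.6 TPM, with NC-1 lowest and NC-2 highest. SNAI1 had a median of 7.48 TPM. TWIST1 and PRRX1 were listed at 0 in all libraries, and SNAI2 (0.104 TPM), ZEB2 (0.0293 TPM) and TWIST2 (0.250 TPM) stayed low. Fibronectin (FN1), a matrix protein often used as a mesenchymal marker, measured 0.494, 0.383, 0.602, 0.440 and 0.337 TPM.

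**Figure D2:**
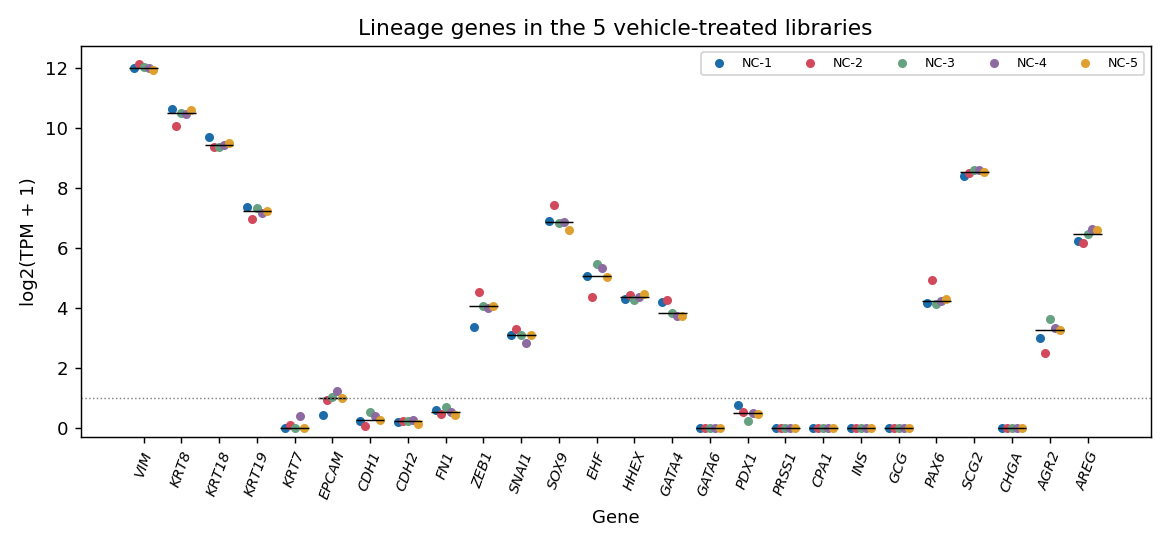
Level as log2(TPM + 1) (y axis) of 26 lineage genes (x axis) in each vehicle-treated library (coloured points), with the median as a bar and a dotted line at 1 TPM. VIM, KRT8, KRT18, KRT19, SOX9 and SCG2 lie high in all 5 libraries, while KRT7, CDH1, CDH2, FN1, PDX1 and the acinar and hormone genes lie at or near 0.

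The label of a pancreatic carcinoma line was set against markers of duct cells, with a mixed outcome. Of 25 ductal transcription factors, 9 were present (36%) and 5 were at 0 in all libraries (20%), against 55.0% and 23.0% of all genes. SOX9 (chr17:72121020-72126420), which marks duct and progenitor cells, measured 119.6, 173, 113, 115 and 96.1 TPM, highest in NC-2. The ETS factor EHF followed with 32.3, 19.7, 43.2, 39.2 and 31.5 TPM, HHEX with a median of 19.8 TPM, MNX1 with 13.6 TPM and GATA4 with 17.4, 18.4, 13.3, 12.2 and 12.4 TPM. FOXA2 (1.89 TPM) and KLF5 (2.12 TPM) were present at low level, and PDX1 (0.404 TPM), the factor of pancreatic progenitors and beta cells, was not. HNF4A, GATA6, PROX1 and GRHL2, all factors of duct or gut epithelium, were listed at 0 in every library. Of 28 ductal surface and secretory genes only KRT19, ANXA4 (53.98 TPM) and MUC1 (8.72 TPM) were present. CFTR, CEACAM5, CEACAM6, MUC13, TSPAN8 and SPP1 were among the 10 at 0. Most listed surface and secretory genes of duct epithelium, KRT7 among them, were thus not present, while SOX9, KRT8, KRT18 and KRT19 were high. The identity of the line was not tested, since the table holds no sequence variants.

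Digestive enzyme and hormone genes were nearly all silent. Of 27 acinar genes, 16 were at 0 in all libraries, among them PRSS1, CPA1, PNLIP, AMY2A and the factor PTF1A. The only present member was CEL, bile salt-dependent lipase, at 2.18 TPM. Of 22 hormones and islet factors, 15 were at 0, among them INS, GCG, SST, NEUROD1, NEUROG3, ISL1 and NKX2-2. PAX6, a factor of endocrine and neural cells, was the exception with 16.9, 29.6, 16.7, 17.8 and 18.5 TPM, highest in NC-2. MAFA was present at 1.79 TPM.

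Some genes of the regulated secretory granule were transcribed, though a smaller share than over the whole table. Of 28 neuroendocrine granule genes, 12 were present (42.9%) and 10 were at 0 (35.7%), against 55.0% and 23.0% of all genes. Secretogranin II (SCG2), a granule protein, measured 334, 365, 385, 385 and 370.5 TPM, with all 5 libraries within a narrow range of deposited TPM. It was followed by ENO2 (45.5 TPM), the peptide-amidating enzyme PAM (43.9 TPM), PCSK1N (24.95 TPM), VGF (17.8 TPM), SYP (13.01 TPM) and SYT1 (12.7 TPM). The somatostatin receptor SSTR5 stood at 4.79 TPM. Chromogranin A (CHGA), the usual neuroendocrine marker, NCAM1, SNAP25 and the prohormone convertases PCSK1 and PCSK2 were listed at 0 in all libraries.

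Pancreatic tumours have been sorted by transcription into classical and basal-like subtypes. Of 23 classical genes, 1 was present, the secretory disulfide isomerase AGR2 (8.64 TPM), and 13 were at 0, among them TFF1, TFF2, LYZ and REG4. Of 23 basal-like genes, 6 were present (26.1%) and 15 were at 0 (65.2%), against 55.0% and 23.0% of all genes. The EGF family ligand AREG led these with 73.7, 70.5, 86.6, 97.6 and 96.9 TPM, higher in NC-3, NC-4 and NC-5 than in NC-1 and NC-2. CTSV (37.2 TPM), SLC2A1 (30.6 TPM), KRT15 and S100A2 (14.9 TPM) were among the others, whereas KRT6A, KRT6C, SERPINB3 and LY6D were at 0. No subtype was assigned from these counts.

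Markers of other cell types were read the same way. Hepatocyte and gut markers had 0 of 17 present and 13 at 0 in all libraries. Leukocyte markers had 2 of 18 present, the lysosomal gene CD68 (38.2 TPM) and CD8A (2.96 TPM), and CD3D, CD3E, MS4A1, TYROBP and HBB were at 0. Endothelial markers had 3 of 12 present, ENG (55.4 TPM), EMCN (3.43 TPM) and ESAM (2.27 TPM), with PECAM1, KDR and TEK at 0. Of 17 fibroblast and stellate markers 5 were present. RGS5, a pericyte marker, reached 216, 279, 218, 204 and 237 TPM, and COL1A2, FBLN1 (22.05 TPM), ACTA2 (18.1 TPM) and COL1A1 were the others, while FAP, DCN, LUM, POSTN and DES were at 0. The summed level of a list over NC-1 to NC-5 ran from 1.70 to 2.63 TPM for hepatocyte and gut markers, 44.3 to 50.7 TPM for leukocyte, 51.9 to 68.6 TPM for endothelial and 345 to 380.2 TPM for fibroblast and stellate markers. Most of the leukocyte sum was CD68, most of the endothelial sum was ENG, and most of the fibroblast sum was RGS5 and COL1A2. The source of these transcripts was not tested.

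**Figure D3:**
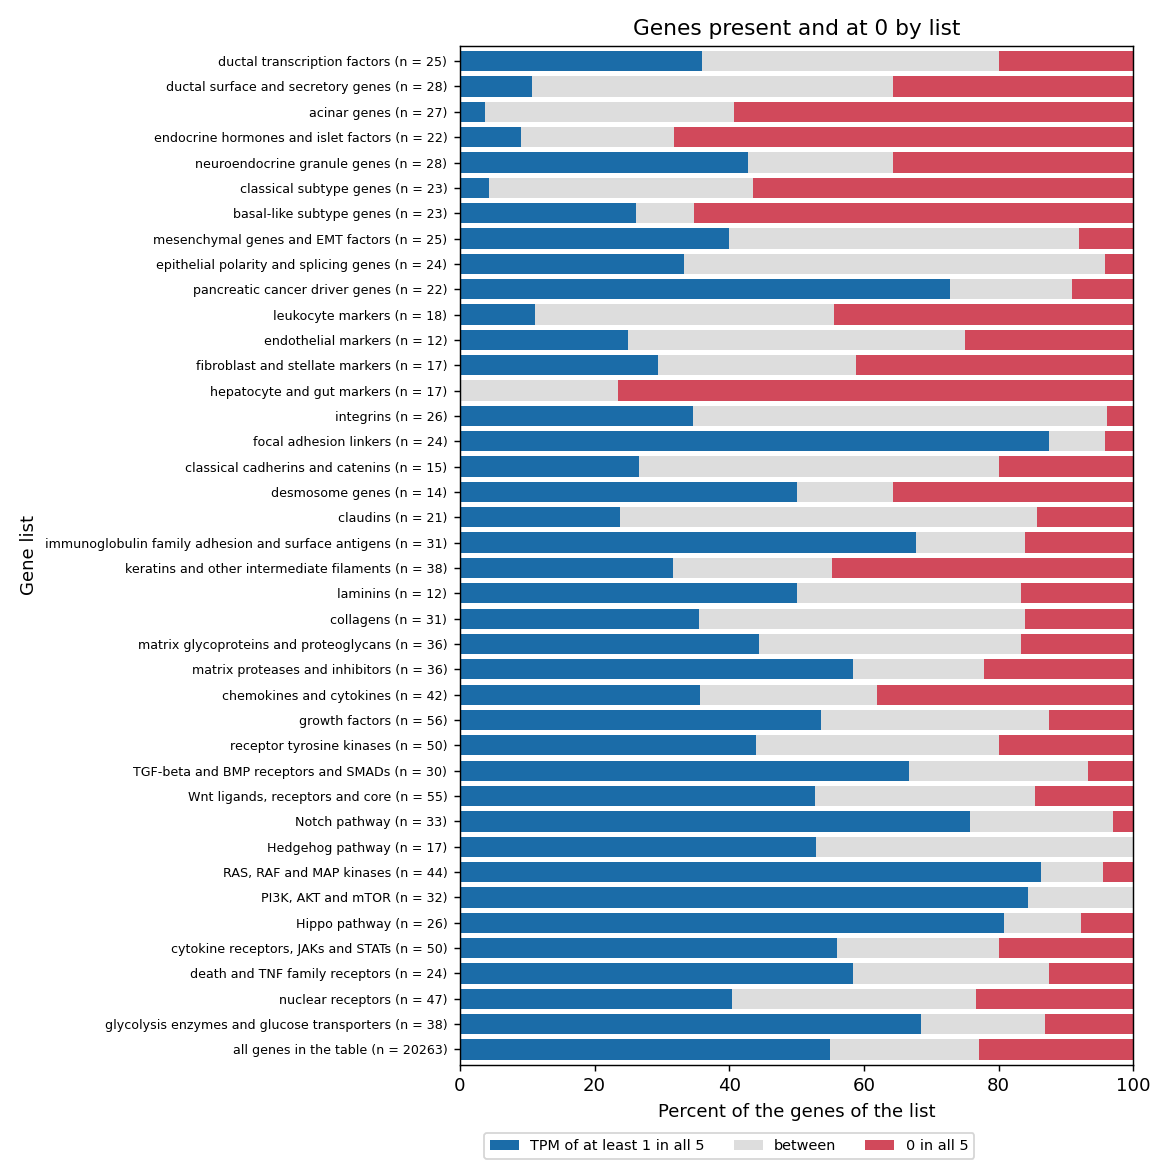
Percent of the genes of each list (x axis) that were present, between or at 0 in all 5 vehicle-treated libraries, for 39 lists and all genes of the table (y axis). RAS, PI3K, Hippo and focal adhesion genes are mostly present, and acinar, islet and gut genes are mostly at 0, against 55.0% present and 23.0% at 0 over all genes.

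Genes altered in pancreatic cancer were mostly present, 16 of 22 (72.7%, against 55.0% of all genes). MYC had a median of 48.5 TPM and SMAD4 measured 17.4, 14.1, 35.8, 26.5 and 13.7 TPM, highest in NC-3. The tumour suppressors CDKN2A and CDKN2B were listed at 0 in all libraries. TGFBR2, the type II receptor for TGF-beta, measured 0.219, 0.202, 0.406, 0.342 and 0.140 TPM and the histone demethylase KDM6A 0.344, 0.127, 0.245, 0.373 and 0.226 TPM, both under 1 in every library. RNF43, a Wnt receptor ligase, stood at 0.0323 TPM.

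CDKN2A lies in a stretch of chromosome 9 without appreciable transcription, which was looked at after its values were seen. From SLC24A2 to TUSC1 (chr9:19507452-25678440 on hg38) 29 neighbouring protein-coding genes of the table all stayed under 0.5 TPM in every library. Of these, 23 were at 0 in all libraries, and the highest single value was 0.192 TPM, in KLHL9. The stretch holds 16 interferon genes, which are normally silent until induced, and 13 other genes. Among the latter are MTAP, a methylthioadenosine salvage enzyme at 0, 0, 0.0635, 0 and 0 TPM, FOCAD at 0.0363 TPM, MLLT3, HACD4 and ELAVL2. On one side RPS6 stood at 1840.4 TPM, DENND4C at 12.2 TPM and ACER2 at 0.913 TPM. On the other CAAP1 stood at 12.8 TPM, PLAA at 18.7 TPM and IFT74 at 13.2 TPM. Runs of at least 29 genes under the same limit occurred 11 times in the genome, this one included, and the longest had 63 genes. As background, loss of both copies of CDKN2A has been described in PANC-1. DNA was not measured in these libraries, so deletion and silence cannot be told apart.

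**Figure D4:**
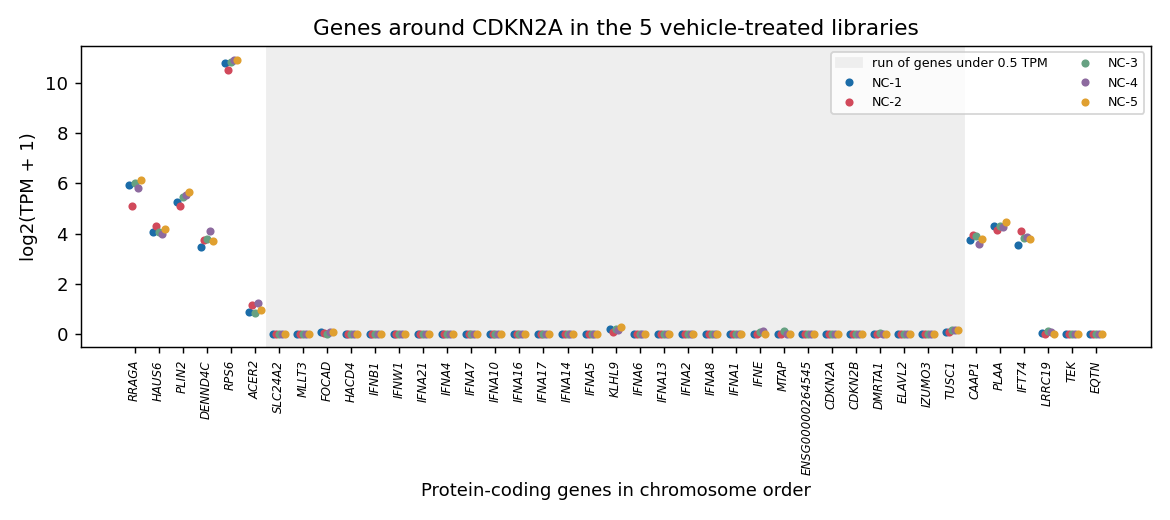
Level as log2(TPM + 1) (y axis) of protein-coding genes around CDKN2A in chromosome order (x axis), with 1 point per vehicle-treated library and the run of 29 genes under 0.5 TPM shaded. RPS6 and its neighbours on the left and CAAP1, PLAA and IFT74 on the right are transcribed, and every gene of the run lies near 0.

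HOX genes, which record position along the body axis in 4 clusters, were transcribed mainly from cluster B. There 9 of 10 genes were present and HOXB1 was at 0. HOXB8 led with 39.5, 42.7, 36.1, 31.2 and 30.1 TPM, and HOXB2 measured 21.2, 16.7, 18.7, 17.6 and 17.4 TPM. The others ran from HOXB9 (16.2 TPM) and HOXB7 (13.8 TPM) down to HOXB13 (5.73 TPM) and HOXB4 (2.42 TPM). Cluster C had 4 of 9 present, led by HOXC8 with 9.99, 10.2, 7.87, 8.10 and 7.06 TPM. Cluster A had 1 of 11, HOXA11 with 4.90, 2.55, 4.14, 3.30 and 4.18 TPM, and HOXA4, HOXA9 and HOXA10 were at 0. Cluster D had 0 of 9 present and 7 at 0. HOX genes of a cluster overlap in annotation, among them HOXB7 with HOXB8, so their single levels are less certain than the contrast between clusters.

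**Figure D5:**
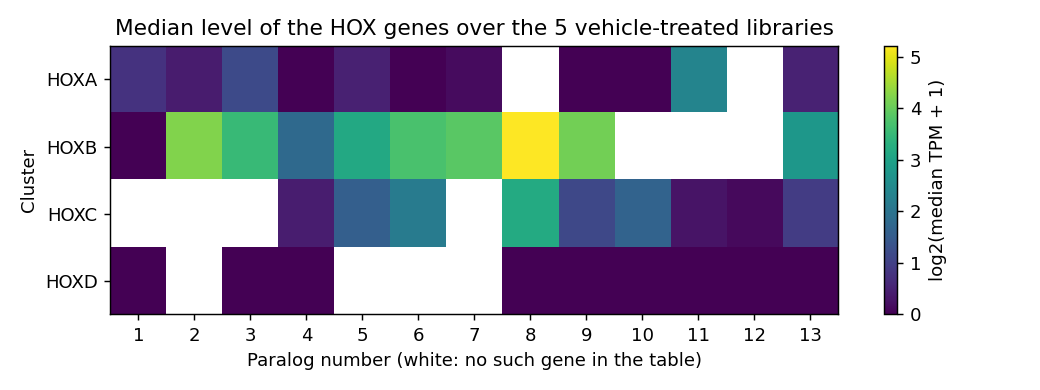
Median level over the 5 vehicle-treated libraries as log2(median TPM + 1) (colour) of the HOX genes by cluster (rows) and paralog number (columns), with white where the table holds no such gene. Cluster B stands out from paralog 2 to 9, with HOXB8 highest at 36.1 TPM, and cluster D lies at 0 or near it.

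Other families of developmental factors and the nuclear receptors had some of their members present. The share present was 33.3% of GATA, 33.3% of PAX, 36.8% of SOX, 36% of FOX and 55.6% of KLF factors. It was 40.4% of nuclear receptors, against 55.0% of all genes. Of 6 GATA factors, GATA2 (55.3 TPM) and GATA4 were present. Of 9 PAX factors, PAX8 (17.8 TPM), PAX6 and PAX2 (4.79 TPM) were present and 4 were at 0. Of 19 SOX factors 7 were present, with SOX12 (50.99 TPM) and SOX13 (21.7 TPM) after SOX9. Of 50 FOX factors 18 were present, led by the cell cycle factor FOXM1 (95.2 TPM), and FOXA1 (0.802 TPM) was not. Of 18 KLF factors 10 were present, led by KLF6 (146 TPM). Of 47 nuclear receptors 19 were present. The orphan receptors NR2F1, with 245, 197, 248, 264 and 224 TPM, and NR2F2 (199 TPM) led them, whereas PGR, THRB and NR1H4 were at 0 and the vitamin D receptor VDR stood at 0.515 TPM.

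Some genes of adhesion to matrix were transcribed at high level. ITGB1, the beta 1 integrin chain, measured 439, 442, 418, 408 and 448 TPM and varied little in deposited TPM. Its most abundant alpha partner was ITGA3, a laminin receptor, with 136, 83.2, 124, 113 and 117 TPM, and ITGA5 (24.2 TPM), ITGAV (15.6 TPM) and ITGA6 (10.9 TPM) followed. ITGB5 had a median of 38.4 TPM and ITGB4 of 3.74 TPM, so that ITGB1 exceeded ITGB4 by a ratio of 81.5 to 188. Of 26 integrins 9 were present (34.6%, against 55.0% of all genes), and the leukocyte integrin ITGA4 was at 0. Focal adhesion linkers were present in 21 of 24 cases. Among them were CAVIN1, a caveolar coat protein, with 472, 296, 430.1, 412 and 409 TPM, the actin cross-linkers ACTN4 (266 TPM) and FLNA (202 TPM), PXN (199 TPM), VCL (132 TPM) and the kinase PTK2 (78.9 TPM).

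Cell-cell adhesion was uneven. Of 15 classical cadherins and catenins, 4 were present, all of them catenins, which link cadherins to actin. CTNNA2 and CTNNA3, catenins of other tissues, were at 0. CTNNA1 measured 319, 178, 263, 313 and 348 TPM, CTNNB1 had a median of 117 TPM, CTNND1 of 55.6 TPM and JUP of 31.5 TPM. CDH3 (0.811 TPM) was the highest of the cadherins on the list. Desmosome genes had 7 of 14 present. The plaque protein PKP3 led with 125, 52.3, 121, 110.2 and 105 TPM, and the desmosomal cadherin DSG2 (16.5 TPM) and DSP (13.2 TPM) were present, while DSG1, DSG3 and PKP1 were at 0. Of 21 claudins 5 were present, CLDN4, CLDN15 (25.01 TPM), CLDN1 (16.6 TPM), CLDN12 (14.2 TPM) and CLDN11 (3.26 TPM).

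CLDN4, a tight junction claudin, was among the least steady genes. It measured 20.2, 28.9, 1.60, 83.4 and 77.8 TPM, lowest in NC-3 and highest in NC-4 and NC-5. Surface antigens of the immunoglobulin and related families had 21 of 31 present. Basigin (BSG), an inducer of matrix proteases and partner of lactate transporters, measured 1263, 758, 1282, 1236 and 1255 TPM, and CD151 (309 TPM), CD9 (297 TPM) and CD63 (233 TPM) of the tetraspanins were high. L1CAM stood at 43.5 TPM, ICAM1 at 1.84 TPM and the PD-1 ligand CD274 at 0.0864 TPM. Mesothelin (MSLN), a surface antigen of many pancreatic tumours, had a median of 0, and VCAM1 and PROM1 were at 0 in all libraries.

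Matrix genes were transcribed for some chains of a molecule more than for others. Of 12 laminins 6 were present. LAMC1 measured 52.02, 45.95, 54.95, 52.5 and 53.2 TPM, followed by LAMB2 (42.3 TPM) and LAMA5 (28.01 TPM), chains that combine in basement membrane laminin. LAMB3 had a median of 0, and LAMA3 (0.631 TPM), its partner in epithelial laminin, was under 1 TPM. Of 31 collagens 11 were present. Type I collagen contains more alpha 1 than alpha 2 chains, yet COL1A2 measured 111, 66.2, 108, 97.02 and 97.9 TPM and COL1A1 only 3.82, 2.58, 2.57, 2.70 and 2.57 TPM. COL1A2 exceeded COL1A1 by a ratio of 25.7 to 42.2 in each library. COL5A2 measured 110.1, 91.01, 123, 117 and 116 TPM and exceeded COL5A1 (1.27 TPM) by a ratio of 62.0 to 110.5. For the basement membrane chains COL4A2 and COL4A1 the ratio was only 1.69 to 2.29. COL18A1 (92.3 TPM), COL6A1 (83.6 TPM) and COL17A1 (66.98 TPM) were also present, and COL3A1 (0.0807 TPM) was not.

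Secreted lectins, proteases and inhibitors were among the abundant products. Galectin 1 (LGALS1) measured 1834, 867, 2044, 2026 and 2389 TPM, lowest in NC-2. The metalloprotease inhibitor TIMP1 measured 1309.7, 819, 1148, 1183 and 1099.9 TPM and the serine protease inhibitor SERPINA3 433, 203, 659, 627 and 528 TPM. TIMP2 was less steady, with 95.4, 313, 79.1, 75.6 and 235 TPM, high in NC-2 and NC-5. Of 36 proteases and inhibitors 21 were present. The lysosomal cathepsins CTSD (315 TPM) and CTSB (241 TPM), the sheddase ADAM9 (165 TPM), and the plasminogen activator PLAU (115 TPM) stood high. Among the matrix metalloproteases MMP11 led with 25.5 TPM, MMP14 had 3.31 TPM, and MMP3, MMP7, MMP8, MMP10, MMP12 and MMP13 were at 0. Of 36 matrix glycoproteins and proteoglycans 16 were present, among them SDC4 (93.8 TPM), AGRN (72.8 TPM) and CCN1 (67.8 TPM), while SPP1, DCN, LUM and POSTN were at 0.

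Of 42 chemokines and cytokines 15 were present and 16 were at 0. MIF, macrophage migration inhibitory factor, measured 1701, 866, 1616, 1633 and 1614 TPM. The neutrophil chemokine CXCL1 measured 203, 186, 178, 179.6 and 184 TPM and CXCL8 49.5, 41.9, 52.1, 103 and 124 TPM, higher in NC-4 and NC-5 than in the other libraries. LIF measured 48.8, 30.9, 59.96, 79.2 and 78.8 TPM, and CSF1 (51.4 TPM) and CSF3 (25.9 TPM) were also present. Their receptors on the same cells differed. CXCR1, which binds CXCL8, was at 0 in all libraries and CXCR2 had a median of 0, whereas the LIF receptor subunits IL6ST (23.8 TPM) and LIFR (5.86 TPM) were present. IL6, IL10, CXCL9, CXCL10, CXCL12 and CSF2 were at 0. The receptors OSMR (67.8 TPM) and IL1R1 (53.1 TPM), the transcription factor STAT3 with 139.993, 94.02, 157, 147 and 145 TPM and the kinases TYK2 (92.1 TPM) and JAK1 (38.9 TPM) were present. Over the 50 cytokine receptors, JAKs and STATs, 28 were present.

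Growth factors had 30 of 56 present. HDGF, a nuclear growth factor, led with 594, 439, 555, 547 and 536 TPM. Of the EGF receptor ligands EREG measured 84.9, 83.5, 87.6, 97.8 and 99.4 TPM, about the level of AREG, BTC had 7.52 TPM and HBEGF 2.91 TPM, while TGFA and EGF had medians of 0. Their receptor EGFR measured 82.1, 85.2, 82.2, 75.6 and 76.6 TPM and varied little in deposited TPM. ERBB2 had a median of 84.6 TPM and ERBB3 of 4.93 TPM. EPHA2, an ephrin receptor, was the most abundant of the receptor tyrosine kinases with 105, 66.4, 92.8, 96.2 and 94.3 TPM, and EPHB4 (88.1 TPM), RYK (77.1 TPM) and AXL (57.9 TPM) were close. The AXL ligand GAS6 was also present (21.5 TPM). MET had 14.1 TPM, with its ligand HGF at 0.0185 TPM. Of 50 receptor tyrosine kinases 22 were present and 10, among them KIT, KDR and the neurotrophin receptors NTRK2 and NTRK3, were at 0.

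The cascade downstream of these receptors was broadly transcribed, with 38 of 44 genes of the RAS, RAF and MAP kinase list present. MAP2K2 measured 560.3, 360.1, 529.7, 503 and 502 TPM and exceeded its homologue MAP2K1 (22.1 TPM) by a ratio of 21.4 to 24.5. The adaptor SHC1 (239.8 TPM), HRAS (106 TPM) and MAPK3 (89.2 TPM) were present. So were the feedback inhibitors SPRY4, with 177, 121, 164, 119 and 166 TPM, and SPRY2 (145 TPM) and the pathway targets FOSL1 (114 TPM), ETV4 (38.3 TPM) and ETV5 (38.2 TPM). DUSP6 had 8.87 TPM and DUSP4 0.0191 TPM. The early response gene EGR1 measured 37.4, 79.3, 112, 255 and 206 TPM and differed widely between libraries, lowest in NC-1 and highest in NC-4.

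Of 32 PI3K, AKT and mTOR genes 27 were present and none was at 0 in all libraries. The mTOR target EIF4EBP1, a repressor of translation, measured 245, 146, 223, 235 and 232 TPM, and AKT1 (141 TPM), AKT2 (118 TPM) and RHEB (100.3 TPM) were present. The Hippo list had 21 of 26 present. WWTR1, the coactivator TAZ, measured 184, 187, 216, 183 and 211 TPM, above its relative YAP1 (61.1 TPM) in every library, and TEAD4 (103 TPM) was the highest of their DNA-binding partners. The share of present genes was 86.4% in the RAS list, 84.4% in the PI3K list and 80.8% in the Hippo list, against 55.0% in the whole table.

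TGF-beta and BMP receptors and SMADs had 20 of 30 present (66.7%, against 55.0% of all genes). The type I receptor TGFBR1 stood at 5.04 TPM beside TGFBR2 under 1 TPM, and SMAD3 (39.3 TPM) and SMAD2 (23.2 TPM) were present. The ligand genes TGFB1 (26.2 TPM) and TGFB3 (25.4 TPM) were present, and TGFB2 (0.243 TPM) stayed under 1 TPM. The BMP targets ID3, with 505, 253, 439, 375 and 383 TPM, and ID1 (319.8 TPM) were high, and the BMP receptors BMPR1A (10.7 TPM), BMPR2 (7.36 TPM) and the ligand BMP7 (19.98 TPM) were present. ID2 measured 72.9, 113, 88.4, 27.99 and 19.4 TPM and was lower in NC-4 and NC-5 than in the other 3. ID4 was at 0 in all libraries.

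Wnt genes had 29 of 55 present. DVL1, a cytoplasmic transducer, measured 128, 58.96, 127, 119 and 123 TPM. The secreted antagonists SFRP1 (94.2 TPM) and DKK1 (89.99 TPM) exceeded every Wnt ligand, of which WNT11 was the highest with 2.72 TPM. FZD6 (25.7 TPM) and FZD8 (20.7 TPM) led the receptors, and the feedback target AXIN2 had 0.535 TPM. Notch genes had 25 of 33 present. The transmembrane protein DNER measured 111, 61.3, 104, 105 and 126 TPM, the ligand JAG2 had 64.1 TPM, the receptors NOTCH2 43.7 TPM, NOTCH3 26.7 TPM and NOTCH1 18.6 TPM, and the target HES1 13.6 TPM.

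Hedgehog genes had 9 of 17 present. The ligand SHH measured 10.4, 7.10, 11.9, 14.5 and 13.1 TPM and its cell-surface partner GAS1 38.96, 19.9, 42.9, 42.5 and 36.2 TPM. SMO, the signal transducer, had a median of 28.3 TPM. The targets PTCH1 (1.60 TPM) and GLI1 (1.06 TPM) were low beside them. Death and TNF family receptors had 14 of 24 present. The soluble decoy TNFRSF6B, which binds FAS ligand, measured 777, 425, 727, 672 and 671 TPM, but its gene overlaps a read-through model with RTEL1, so that the split is uncertain. TNFRSF1A (247 TPM) and LTBR (249 TPM) were high, and FAS had 7.23 TPM.

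Among glycolytic isoenzymes single members predominated. ENO1 (3166 TPM), TPI1 (2693 TPM), PKM (1017 TPM) and ALDOA (823 TPM) followed GAPDH, and 26 of 38 genes of enzymes and glucose transporters were present. LDHA, the lactate dehydrogenase chain that favours lactate, measured 1443, 564, 936, 479 and 512 TPM, and LDHB 11.9, 6.68, 14.5, 13.8 and 15.9 TPM. LDHA exceeded LDHB by a ratio of 32.2 to 121, with NC-1 highest. HK1 (145 TPM) exceeded HK2 (9.87 TPM) by 12.2 to 15.1. SLC2A1 was the glucose transporter among the high ones with SLC2A6 (38.5 TPM), and SLC2A3 had 0.0386 TPM. The lactate exporters SLC16A3 (117 TPM) and SLC16A1 (82.98 TPM) were present.

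Ribosomal and proteasome families were nearly complete, with 79 of 81 cytosolic ribosomal protein genes, 78 of 78 mitochondrial ones and 37 of 39 proteasome subunits present. Of 476 ZNF genes, 375 (78.8%) were present and 29 were at 0. Olfactory receptors had 0 of 391 present with 358 at 0, and keratin-associated proteins 0 of 94 with 84 at 0. Of 19 MHC class I and II genes, 4 were present and 9 were at 0. Among those present were HLA-B, with 72.05, 34.9, 104, 92.8 and 94.9 TPM, HLA-E (75.8 TPM) and HLA-C (57.8 TPM). The highest median of the family, 255 TPM, belonged to a member not reported here. HLA-DRA, HLA-DRB1 and HLA-DPB1 of class II were at 0. The class I light chain B2M, no member of a list and chosen after its values were seen, measured 49.5, 132, 189, 54.99 and 249.7 TPM, lowest in NC-1 and NC-4. Calcium-binding S100A6 (1609 TPM) and ANXA2 (1452 TPM), the neuronal tubulin TUBB3 (217 TPM) and the metallothionein MT2A (1359 TPM) led or stood high in their families.

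Agreement between libraries was close apart from NC-2. Across the 11142 present genes, which are not independent replicates, Spearman's rho between pairs of NC-1, NC-3, NC-4 and NC-5 was 0.984 to 0.988, and between NC-2 and each of these 0.957 to 0.960. The median SD of log2(TPM + 1) over the 5 libraries was 0.23 and without NC-2 it was 0.12. Without NC-2, this median was 0.16 for genes with a median of 1 to 5 TPM and 0.08 for genes of 1000 TPM or more. A single library stood far from the other 4 (Dixon's ratio above 0.71) in 1913 present genes for NC-2 and in 51 to 82 for each of the other libraries.

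A small set of genes varied widely even without NC-2. The 50 genes with the largest SD over NC-1, NC-3, NC-4 and NC-5 were taken after their values were seen, and 31 of them (62.0%) overlap another listed gene in GENCODE 29, against 36.8% of present genes. They included read-through models such as MICOS10-NBL1 (105, 2.14, 59.1, 104 and 8.29 TPM), for which the split of reads with the single genes is uncertain. Genes without such an overlap were among them as well. EIF3F, a subunit of an initiation factor, measured 244, 45.7, 46.5, 245 and 32.2 TPM, in 2 levels rather than a continuous spread, and CLDN4, EGR1, ID2 and B2M belong here too. FOS, an early response gene like EGR1, measured 6.04, 5.63, 17.2, 25.4 and 28.2 TPM and was likewise highest in NC-4 and NC-5. The stress factor DDIT3 measured 11.5, 8.94, 13.03, 36.3 and 36.8 TPM, also highest in NC-4 and NC-5. Of the 80 genes given here with all 5 values, 24 overlap another listed gene in annotation. These include PAX6 (with ELP4), RGS5 (NUF2), TIMP1 (SYN1), HDGF (PRCC), DDIT3 (MARS1 and MBD6) and SMAD4, MIF and SERPINA3 with unnamed or read-through models. Their levels are uncertain to that extent. Whether the differences between libraries come from the cells, the harvest or the assignment of reads was not tested.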

How the data were processed

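RNA of PANC-1 cells was extracted with an RNeasy kit (Trizol in the series text) and built into mRNA libraries with a Hieff NGS kit, per the labels' protocols. The authors deposited 1 table of TPM per gene, with human Ensembl IDs. Which aligner, quantifier, annotation and strand setting they used is not given in the sources used here. The submitters' processing notes name the builds hg38, GRCm38 and mm10 without roles. The series text speaks of 4 samples a group where the labels list 5, and all 5 NC columns were used as deposited.

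Of 20263 IDs, 20148 were named from a symbol table and 76 from GENCODE 29, which also gave hg38 positions, and 39 stayed unnamed. Present means a TPM of at least 1 in all 5 columns. Genes were ranked by median TPM. Spread is the SD of log2(TPM + 1). There is 1 group, so no comparison between groups was tested. Dixon's ratio, an outlier criterion, was the only one applied within the group. The calculations (Python, pandas and numpy) were checked on simulated data. Named genes are the 30 most abundant, members of 39 gene lists and of symbol families, and genes said to be chosen after their values were seen. The 5 values were to be printed for the 10 most abundant genes and the leading list members, and other list members given with them were chosen after their values were seen. Some list members are counted but not reported here. Members and lists were chosen with earlier results of these data known. Promoters were matched by symbol for protein-coding genes outside chromosomes 8 and M. Alternatives were other TPM minima, pseudocounts, scalings, removal of the mitochondrial genes and leaving out each library.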

Additional observations from a re-analysis of the deposited data

Results flagged for a closer look

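A value is listed here when 1 of the 5 libraries lay far from the other 4, by Dixon's ratio (gap to the nearest value over the whole range) above 0.71. Chance marks about 1 in 20 such groups. Of 80 genes with all 5 values given, 20 were marked, and in 16 of them the library apart was NC-2 (25% and 20% of the 80). Over all 11142 present genes the shares were 19.5% for any library (2174 genes) and 17.2% for NC-2, so the genes printed lie near that background. At library level, NC-2 stood apart in the share of mitochondrially encoded genes (37.5%, ratio 0.925), in the share of the 50 most abundant genes (47.4%, ratio 0.933) and in the number of genes at 1 TPM or more (11340, ratio 0.793).

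NC-2 was the highest library for MT-CO3 (ratio 0.892), MT-CO2 (0.926), MT-CO1 (0.912), MT-ATP8 (0.951), MT-ND4L (0.901), MT-ND4 (0.904) and PAX6 (0.858). In deposited TPM it was the lowest for GAPDH (0.930), FTL (0.727), PKP3 (0.726), BSG (0.912), MIF (0.896), STAT3 (0.729), EIF4EBP1 (0.780), DVL1 (0.868) and GAS1 (0.71). Mitochondrial genes took 37.5% of TPM in NC-2, which leaves less for every nuclear gene there. A low deposited TPM in NC-2 thus does not by itself show whether a gene held a lower share of the nuclear total. With the mitochondrial genes removed, NC-2 was apart in 2024 present genes (18.2%), and the ratios of the genes named here are not reported for that setting.

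In the other 4 genes another library was the highest. NC-3 was apart for EEF1A1 (0.774) and for MTAP (1, since it was listed at 0 in the other 4), NC-4 for KRT7 (0.771) and NC-1 for COL1A1 (0.891). For MTAP and KRT7 every value was under 0.5 TPM.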

How the results depend on the processing

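The 11142 present genes became 11748 at a minimum of 0.5 TPM, 9039 at 5 TPM, 11661 by the median, 11395 after removal of the mitochondrial genes and 11202 with median-ratio scaling. The 4655 genes at 0 became 5843 under 0.1 TPM. Of the 30 most abundant genes, at least 29 were shared under each alternative ranking. The mean share of the 50 most abundant genes fell from 32.6% to 20.8% with the mitochondrial genes removed. The median SD of log2(TPM + 1), 0.23 over all libraries, ran from 0.12 (without NC-2) to 0.25 when libraries were left out in turn, and was 0.12 without NC-2 and the mitochondrial genes, a setting chosen after seeing the data. At a minimum of 5 TPM, 11 of 39 lists lost present members by more than 1.5 times, among them chemokines and cytokines (9) and growth factors (18). No paired analysis was possible because only 1 group was described. TPM keeps no read totals, so counting error is unknown.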
